A study of Rattus norvegicus with 8 samples.

Results

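The miR-26 family, rno-miR-26a and rno-miR-26b with their minor products, was followed in islets of the pancreas from Sprague Dawley rats. Islets are the endocrine cell clusters in which insulin-secreting beta cells prevail. The family's members were taken by name from the non-control features of the array, and 4 of the 677 rat miRNAs qualified: miR-26a, miR-26b and the other arms of the same hairpins, miR-26a* and miR-26b*. The rule that makes a miRNA a member uses its name and no measured value. Total RNA of control rats, with no further treatment in the labels, was hybridised to 1-colour Agilent miRNA arrays. Islets from rats aged 10 days (P10) gave 4 arrays and islets from male rats aged 3 months (adult) gave 4. The labels call the 4 arrays of an age biological replicates. They give neither the sex of the P10 rats nor the number of animals behind an array, so p-values measure the spread between these arrays. The series title names beta-cell maturation as the subject.

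A miRNA guides Argonaute proteins to messenger RNAs that match its seed, bases 2 to 8 from the 5′ end, and lowers their output. miR-26 is a broadly expressed vertebrate family whose hairpins lie inside genes of small C-terminal domain phosphatases and are made together with them. In beta cells miR-26 is known as one of several miRNAs that sustain insulin content, and miR-26a is known to repress Ezh2, a histone methyltransferase that marks silent chromatin, and the Tet enzymes, which oxidise methylated DNA. It is also linked to cell cycle exit in other tissues.

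The mature sequences of both arms are shown because the 2 main products differ so little that what each probe reads depends on a few bases. They are RefSeq entries of the rat build GRCr8, matched by name for 4 of 4 members, with the array's asterisk read as the 3′ arm. They run 5′ to 3′, and capitals mark the seed.
miR-26a (5′ arm): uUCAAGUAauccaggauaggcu
miR-26b (5′ arm): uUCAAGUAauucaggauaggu
miR-26a* (3′ arm): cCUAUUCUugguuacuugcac
miR-26b* (3′ arm): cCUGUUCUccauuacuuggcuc

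miR-26a and miR-26b share the seed UCAAGUA, which no other of the 693 mature rat miRNAs in the table carries. Over the 21 positions both have, counted from the 5′ end, 19 are the same, and the differences from miR-26a to miR-26b are C11U and C21U, with 1 further base on miR-26a. Neither difference lies in the seed. The minor arms are less alike, with 14 of 21 positions the same and 1 difference inside the seed, A4G. How far a probe for miR-26a also binds miR-26b, or the reverse, was not tested, and probe sequences are not used here.

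The hairpins are shown to place both arms, which stand in capitals.
Mir26a hairpin: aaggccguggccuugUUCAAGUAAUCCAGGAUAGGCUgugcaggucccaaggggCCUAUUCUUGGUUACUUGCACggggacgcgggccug
Mir26b hairpin: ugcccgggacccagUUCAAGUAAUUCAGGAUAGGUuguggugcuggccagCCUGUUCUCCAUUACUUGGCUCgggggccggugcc

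In GRCr8, Mir26a lies on the plus strand of chromosome 8 within the bounds of Ctdspl, and Mir26b on the plus strand of chromosome 9 within the bounds of Ctdsp1. Both hosts encode small C-terminal domain phosphatases. The table lists 1 gene of each name. The array's own design uses an older build, so no coordinates are given.

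Arrays differed in brightness. Over 278 probes that every array detected well above background, the 75th percentile signal came to 388 and 440 for P10 replicates 1 and 2 and to 989 to 1690 for the other 6 arrays. Each array was divided by its own value, and log2 was taken. Values of single arrays follow the order of replicates 1 to 4. All 8 arrays lay on 1 slide with each age in its own column, so the column and the age of an array cannot be told apart. The islet markers miR-375, miR-7a, miR-7b and miR-153 were well above background on all 8 arrays, 4 of 4, with a summed scaled signal of 11.7 to 25.7 in P10 and 43.4 to 49.4 in adult. miR-7a was the brightest of the 4 on every adult array and weighs most in that sum. Their log2 differences, adult minus P10, were 0.47, 1.85, 1.09 and 1.61 in the order named. The 3 gut epithelium markers summed to 1.11 to 13.5 in P10 and 0.280 to 0.508 in adult. The part of either list in the differences of miR-26 was not tested. In RNA of whole islets, fewer cells of a type and less of a miRNA per cell cannot be told apart.

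miR-26b was 1.30-fold higher in adult than in P10 islets, a log2 difference that went to -0.096 after quantile normalization and to -0.0019 with loess on bright probes. Its brighter probe gave a log2 scaled signal of 1.11, 1.10, 1.13 and 0.87 in P10 and of 1.47, 1.44, 1.47 and 1.36 in adult. Every adult array lay above every P10 array, and P10 replicate 4 was the lowest of all. The means were 1.05 ± 0.12 (SD, n = 4) in P10 and 1.43 ± 0.05 (SD, n = 4) in adult, a log2 difference of 0.38 ± 0.10 (SE; 95% interval 0.15 to 0.61) with a limma adjusted p of 0.0159. Of 238 miRNAs tested, 47.5% passed the threshold of 0.05, 27.3% as higher and 20.2% as lower in adult. The arrays of both ages failed to overlap for 45.8%. A pass in miR-26b alone, among 2 tested members, is thus near the background.

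The dimmer probe of miR-26b also separated the ages. It read 0.68, 0.72, 0.72 and 0.44 in P10 and 1.07, 0.93, 1.01 and 0.95 in adult, again without overlap. Its difference was 0.35 ± 0.11 (SE; 95% interval 0.10 to 0.60), with a limma adjusted p of 0.0297 in the fit over 435 probes, of which 46.2% passed. That call was lost when any 1 of the 4 adult arrays was left out (0.33 to 0.38, limma adjusted p = 0.055 to 0.0884) and with slide row as a block (limma adjusted p = 0.111). It was also lost with quantile normalization (0.19), cyclic loess over all probes (0.24) or on bright probes (0.022) and spike-in scaling (1.41, limma adjusted p = 0.0524). In all the call was lost in 10 of 24 alternatives, not all of them named here. The gap between both probes of miR-26b stayed between 0.38 and 0.51 on all 8 arrays. The gap's age difference of 0.026 was within the spread between arrays (exact two-sided permutation p = 0.429).

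Without P10 replicate 4 the difference of miR-26b was 0.32 and kept its call (limma adjusted p = 0.00946). That array also had the highest summed signal of 4 leukocyte markers, 3.64 against 0.72 to 1.43 on the other P10 arrays and 1.24 to 1.58 in adult. The markers did not all share this. On the log2 scale miR-142-3p (1.36) and miR-142-5p (-2.07) were higher there than on any other array. miR-150 read -0.56 there, below P10 replicate 3 (0.054). miR-223 read -2.65, the highest in P10 but below adult replicate 3 (-2.62). The summed endothelium markers miR-126 and miR-126* were also highest there of all 8 arrays (4.71, next 4.43 on P10 replicate 3). So were the 5 mesenchyme markers (7.38, next 7.11 on adult replicate 3). Islet markers summed highest there within P10 (25.7, next 25.3 on P10 replicate 3). Gut epithelium, acinar and erythroid markers did not peak there (2.37, 0.0440 and 0.153). The part of these markers in the low miR-26b of P10 replicate 4 was not tested. The call was lost without adult replicate 1 (0.37, limma adjusted p = 0.0525) or adult replicate 3 (0.37, limma adjusted p = 0.0548). Each row of the slide held 1 array of each age. Within rows 1 to 4 the adult array was higher by 0.25, 0.37, 0.31 and 0.60, and with the row as a block the difference of 0.38 did not pass (limma adjusted p = 0.0787).

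miR-26a was brighter on the array than miR-26b and did not pass. Its brighter probe gave 2.22, 2.43, 2.27 and 2.38 in P10 and 2.60, 2.45, 2.56 and 2.48 in adult. The lowest adult array lay just above the highest P10 array. The means were 2.32 ± 0.10 (SD, n = 4) and 2.52 ± 0.07 (SD, n = 4), and the log2 difference of 0.20 ± 0.10 (SE) had a limma adjusted p of 0.144. Its 95% interval, -0.03 to 0.42, reaches from a slightly lower adult level to one 0.42 higher, so equal levels were not shown. Within slide rows 1 to 4 the adult array was higher by 0.26, 0.12, 0.18 and 0.22.

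The dimmer probe of miR-26a showed no such separation. It read 1.25, 1.43, 1.04 and 1.24 in P10 and 1.32, 1.16, 1.24 and 1.23 in adult, with the ages intermixed. Its difference was -0.0010 (95% interval -0.26 to 0.26), with a limma adjusted p of 0.996 over all probes, and it was called lower in adult with quantile normalization (-0.51, limma adjusted p = 0.0114) and loess on bright probes (-0.38, limma adjusted p = 0.0356). The brighter probe exceeded the dimmer one by 0.97, 1.01, 1.23 and 1.14 on the P10 arrays and by 1.29, 1.28, 1.32 and 1.25 on the adult arrays. This gap was wider by 0.20 in adult, without overlap (exact two-sided permutation p = 0.0286, the smallest that 4 against 4 arrays allow, and 0.0571 adjusted over the gaps of both miRNAs). After that adjustment the gap did not pass. With the gap of miR-26b at an exact permutation p of 0.429, even complete separation stays above 0.05 when adjusted. The adjusted p therefore cannot decide whether the probes of miR-26a differ in their age difference.

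**Figure D1:**
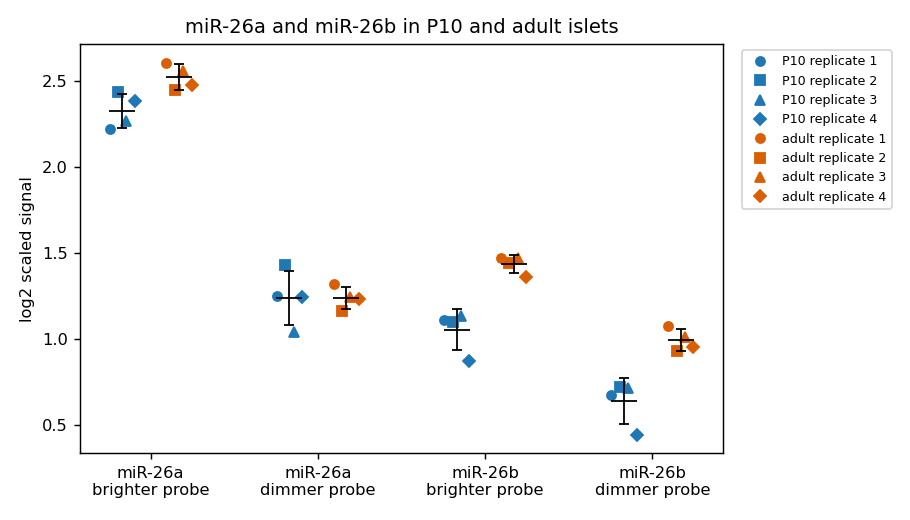
Log2 scaled signal (y axis) of both probes of miR-26a and miR-26b on each array, P10 in blue and adult in orange, with a symbol for each replicate; black bars give the mean and SD of 4 arrays. Both probes of miR-26b separate the ages and have P10 replicate 4 as their lowest array, the brighter probe of miR-26a separates them narrowly (2.43 against 2.45), and its dimmer probe does not.

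Before scaling, the brightness of the arrays showed through. The processed signal of the brighter miR-26a probe was 1805, 2374, 4765 and 8798 in P10 and 8238, 7634, 9869 and 7148 in adult. That of the brighter miR-26b probe was 839, 941, 2169 and 3098 in P10 and 3751, 3802, 4646 and 3291 in adult. P10 replicates 1 and 2 were lowest for both, as they were for the array as a whole. After scaling that order was gone for both miRNAs. Each probe had 10 features per array, of which 7 to 10 were used. Their spread on 1 array, a coefficient of variation of 0.911% to 10.4%, put the standard error of a probe's mean at 0.048 or less on the log2 scale. All used features of both miRNAs were well above background and none was saturated.

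Whether the 2 miRNAs differed in their age difference was asked within each array, where any scaling by 1 factor cancels. On the brighter probes miR-26b minus miR-26a was -1.11, -1.33, -1.14 and -1.51 in P10 and -1.13, -1.01, -1.09 and -1.12 in adult. The ages overlapped, with P10 replicates 2 and 4 below the rest. The means were -1.27 ± 0.19 (SD, n = 4) and -1.09 ± 0.06 (SD, n = 4). They differed by 0.18 (exact two-sided permutation p = 0.114), and by 0.10 when P10 replicate 4 was left out (exact two-sided permutation p = 0.229). With the dimmer miR-26a probe the ages did not overlap. The adult value was then higher by 0.38 against the brighter and by 0.35 against the dimmer miR-26b probe (exact permutation p = 0.0286 each). The dimmer miR-26b against the brighter miR-26a probe gave 0.16 (exact permutation p = 0.0571). Adjusted over these 4 pairs the p-values were 0.0571 to 0.114, so none passed. A sharper rise of miR-26b than of miR-26a was not established on these arrays.

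**Figure D2:**
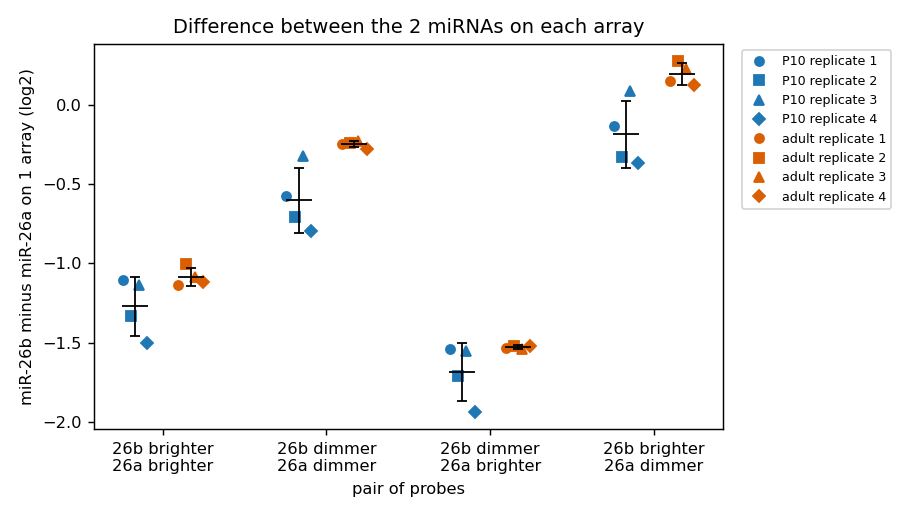
miR-26b minus miR-26a on the log2 scale (y axis) on each array for the 4 pairs of probes (x axis), P10 in blue and adult in orange, with the mean and SD of 4 arrays in black. The adult arrays lie within a narrow range for each pair, and the ages separate only in the 2 pairs that use the dimmer miR-26a probe, with differences of 0.35 and 0.38.

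The direction for miR-26a depended on how arrays were made comparable. It was 0.20 here, and it passed as higher in adult at 0.67 with the percentile taken over all probes (limma adjusted p = 0.0324) and at 0.32 with scaling by the median (limma adjusted p = 0.0378). A higher floor left the difference of miR-26a at 0.20. Only its SE fell, from 0.098 to 0.062, and miR-26a then passed as higher (limma adjusted p = 0.0421). miR-26a passed as lower in adult at -0.43 with quantile normalization (limma adjusted p = 0.0307), at -0.37 with cyclic loess curves fitted on bright probes (limma adjusted p = 0.0218) and at -0.49 in the authors' value table (limma adjusted p = 0.027). Over 29 alternatives miR-26a was called higher in 3, lower in 3 and not called in 23. miR-26b was called higher in 20 of the 29, lower in 0 and not called in 9. Of the scalings it lost its call in the table the authors deposited (0.057), under quantile normalization (-0.096), with cyclic loess over all probes (0.032) or on bright probes (-0.0019) and with spike-in scaling (1.43, limma adjusted p = 0.0503). The median difference of all tested miRNAs moved with the scaling as well, from -0.01 here to 0.11 with quantile normalization, 0.23 with loess on bright probes, 0.15 in the authors' table, 0.45 with all probes and 0.94 with none. Relative to that median, miR-26a stood at 0.21 here, 0.22 with all probes and 0.22 without scaling, but at -0.54 after quantile normalization and at -0.64 in the deposited value table. On the same scale miR-26b stood at 0.39, 0.40, 0.40, -0.21 and -0.10. Scalings by 1 factor per array and those that bend the whole intensity range thus gave opposite places to both miRNAs.

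**Figure D3:**
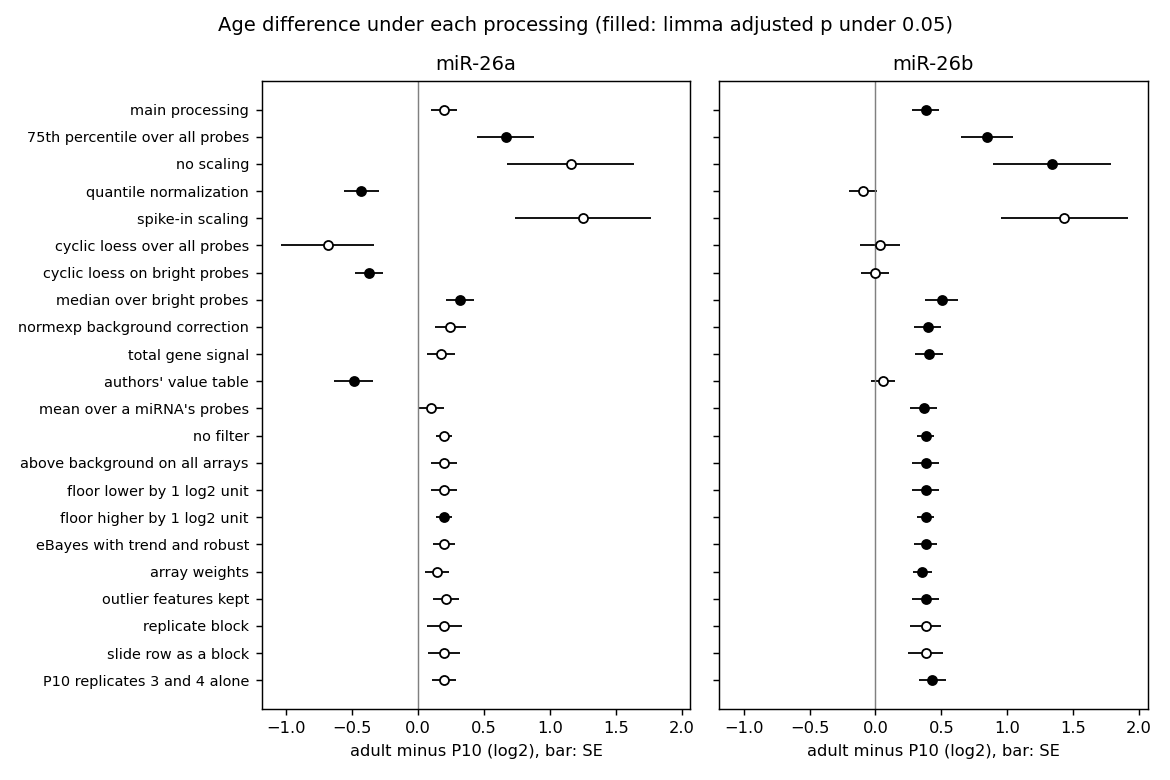
Adult minus P10 difference on the log2 scale (x axis, bar: SE) of miR-26a (left) and miR-26b (right) under the processing used here and each alternative that keeps all arrays or P10 replicates 3 and 4 alone; filled points have a limma adjusted p under 0.05. miR-26a has filled points on both sides of 0, from -0.49 to 0.67, and miR-26b has them only above 0.

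The authors' value table holds log2 values that, once sorted, were equal on all arrays at 309 of 311 positions (to within 0.001). There miR-26a was 12.46, 12.67, 12.37 and 12.96 in P10 and 12.23, 12.10, 12.10 and 12.10 in adult, so that every adult array lay below every P10 array. miR-26b was 11.48, 11.39, 11.48 and 11.34 in P10 and 11.48 on all 4 adult arrays. A value there is thus in effect a rank.

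Ranks show where the family stood on each array, although a probe's brightness is not comparable with another's and ranks describe signal only. By its brightest probe miR-26a ranked 12, 11, 12 and 9 of 677 miRNAs in P10 and 12, 15, 14 and 13 in adult. The mean rank number was 11.0 ± 1.4 (SD, n = 4) in P10 and 13.5 ± 1.3 (SD, n = 4) in adult (exact two-sided permutation p = 0.0857). By the scanner software's total gene signal, which sums a miRNA's probes, the ranks were 11, 9, 12 and 7 in P10 and 14, 15, 15 and 15 in adult, with every adult rank lower in the order (exact two-sided permutation p = 0.0286). miR-29a and miR-29b, members of a family known to act on extracellular matrix genes, were the 2 miRNAs dimmer than miR-26a on all P10 arrays and brighter on all adult arrays, named after their values were seen. None went the other way.

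miR-26b ranked from 25 to 28 at both ages. It stood at 25, 28, 25 and 27 in P10 and at 26, 26, 25 and 27 in adult, a mean difference of -0.25 (exact two-sided permutation p = 1). By total gene signal it ranked 22 to 24 in P10 and 22 on all 4 adult arrays (exact two-sided permutation p = 0.429). miR-29c was the 1 miRNA that was dimmer than miR-26b on all P10 arrays and brighter on all adult arrays. Both members thus lay among the 28 brightest miRNAs on every array by this measure.

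**Figure D4:**
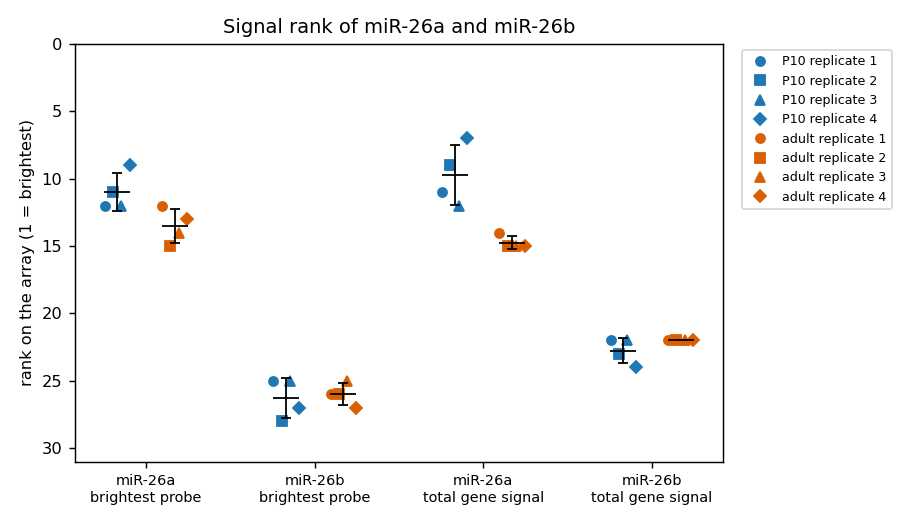
Rank on the array (y axis, reversed, 1 is the brightest of 677 miRNAs) of miR-26a and miR-26b by the brightest probe and by total gene signal, P10 in blue and adult in orange, with the mean and SD of 4 arrays in black. miR-26a lies at 7 to 12 in P10 and 12 to 15 in adult over both measures, and miR-26b at 22 to 28 throughout.

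The minor products were not well above background on any array. miR-26a* had 2 probes and miR-26b* had 4, with 20 features each, and of 158 used features of each over the 8 arrays 0 were well above background. The mean probe signals reached at most 1.21 for miR-26a* and 11.8 for miR-26b*, where the lowest probe signal called well above background was 17.7 to 36.0 depending on the array. They sat at the floor of the log2 scale on 16 of 16 and 31 of 32 combinations of probe and array. Neither was tested, and no fold is given. Of 4 members 2 were thus tested, the main arm of each hairpin.

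Against the other tested miRNAs the family varied little between arrays. The SD within an age was 0.087 for miR-26a and 0.093 for miR-26b, against a median of 0.30, and 8 and 13 of the 238 tested miRNAs had a smaller one. Over all 8 arrays the SD was 0.13 and 0.22, against a median of 0.47. The size of the age difference was also below the median of 0.52, with 181 miRNAs further from 0 than miR-26a and 146 further than miR-26b. These places hold for the scaling used here. Of the 238 miRNAs, 164 were well above background on all arrays, as both members were, and places among those alone were not taken.

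Of the other miRNAs known to sustain insulin content in beta cells, 2 of 3 tested rose in adult and none fell, where 27.3% of all tested miRNAs rose and 20.2% fell. The list's median difference was 0.68 against -0.01 over all tested miRNAs. The fourth, miR-148a, was not among the array's miRNAs. miR-24, known from many tissues for acting on cell cycle genes, read 0.95, 1.25, 1.45 and 1.58 in P10 and 2.26 to 2.40 in adult. The ages did not overlap, and P10 replicates 1 and 2 were lowest. It rose by 1.04 ± 0.15 (SE, limma adjusted p = 0.000753), and by 0.52 and 0.42 without a call under quantile normalization and cyclic loess over all probes. miR-148b-3p rose by 0.68 ± 0.14 (limma adjusted p = 0.00418), and its 0.57 under cyclic loess over all probes did not pass. miR-182, of a cluster known from sensory organs, stood at 0.28 ± 0.11 (limma adjusted p = 0.0845). It was called higher in 8 of 29 alternatives. Among these were quantile normalization (0.41, limma adjusted p = 0.0279) and the authors' value table (0.52, limma adjusted p = 0.013). With normexp it stood at -0.038 without a call.

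Of 8 other miRNAs known to act on Ezh2, 6 were tested, of which 1 rose and 1 fell, and the list's median was 0.16 against -0.01 over all tested miRNAs. With 47.5% of all tested miRNAs called, this count is no higher than the background. miR-124 and miR-138, known from neurons, were not well above background on any array. miR-101b, which shares its known action on Ezh2 with miR-26a, rose by 0.58 ± 0.17 (SE, limma adjusted p = 0.0223), a call lost without adult replicate 1, 2 or 3 (0.56 to 0.59), with normexp (0.37, limma adjusted p = 0.138), with no filter (limma adjusted p = 0.0846), with the replicate number as a block (limma adjusted p = 0.0561) and with cyclic loess over all probes (0.57). Its relative miR-101a stood at -0.045 ± 0.28. On P10 replicates 1 and 2 miR-101a read -1.20 and -1.21, on replicates 3 and 4 -2.36 and -2.09, and in adult -1.85 to -1.62, between both P10 pairs. The 2 acinar markers on the array summed to 0.783 and 0.632 on P10 replicates 1 and 2, to 0.0587 and 0.0440 on replicates 3 and 4 and to 0.195 to 0.397 in adult, and their part in these values was not tested. miR-214, a miRNA of mesenchymal cells, fell by 1.64 ± 0.17 on the log2 scale (limma adjusted p = 0.000168), a call lost without scaling (-0.68, limma adjusted p = 0.195) and with spike-in scaling (-0.59, limma adjusted p = 0.281). The mesenchyme markers miR-199a-5p and miR-199a-3p also fell (-1.75 and -1.62), but miR-143 rose by 0.93 (limma adjusted p = 0.0485) and miR-145 stood at 0.79 (limma adjusted p = 0.0817). All 5 summed to 4.27 to 7.38 in P10 and 5.10 to 7.11 in adult. let-7a (0.15), let-7b (0.17) and let-7c (0.38), linked to differentiation, did not pass, and all 3 turned negative after quantile normalization (-0.51, -0.45 and -0.26). With the percentile taken over all probes all 3 were called higher (0.62, 0.64 and 0.85). By contrast let-7a was called lower with quantile normalization (limma adjusted p = 0.00926). In the authors' value table both let-7a and let-7b were called lower (limma adjusted p = 0.00392 and 0.0255). When P10 replicates 1 and 2 were left out, 6 of the 6 tested miRNAs of the Ezh2 list passed. Only 2 P10 arrays remained, 125 of all 238 tested miRNAs passed there, and miR-101a had turned to 0.46.

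All 4 of the other miRNAs known to act on Tet enzymes rose, where 27.3% of all tested miRNAs did, with a median of 2.67 against -0.01 over all tested miRNAs. miR-29a, miR-29b and miR-29c belong to the same family, so the 4 are not independent and the median rests on that family. The list was also taken up with earlier results of these data known. miR-22, known for acting on Tet2 in blood stem cells, rose by 1.68 ± 0.16 (SE, limma adjusted p = 0.000141), and miR-29a, miR-29b and miR-29c by 2.66, 3.59 and 2.68. None of the 4 passed with cyclic loess over all probes (0.57, 0.84, 1.37 and 1.14). Against these, the differences of miR-26a and miR-26b were small. Whether they differed from those of the list was not tested.

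**Figure D5:**
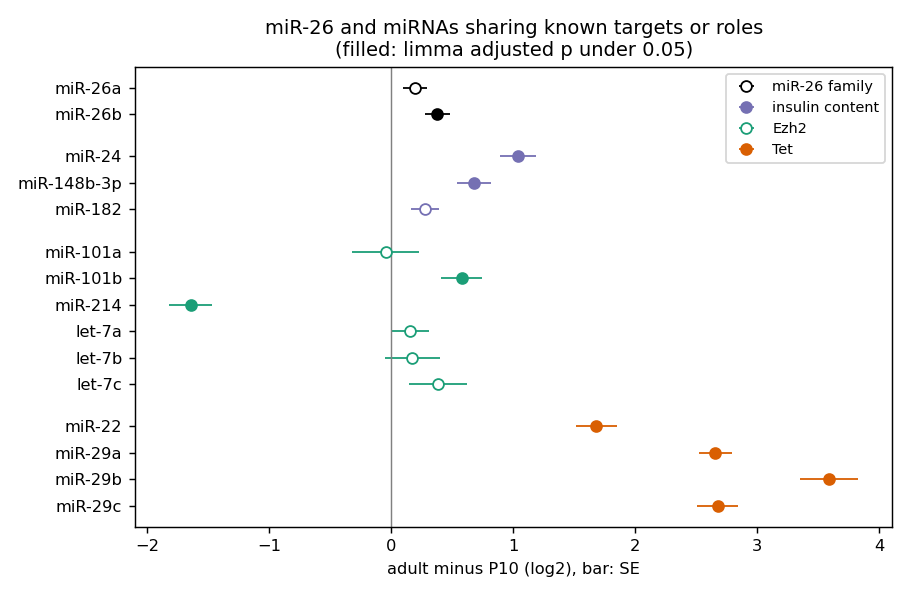
Adult minus P10 difference on the log2 scale (x axis, bar: SE, n = 4 arrays per age) of miR-26a and miR-26b in black and of tested miRNAs sharing a known role in insulin content, Ezh2 or Tet repression in colour; filled points have a limma adjusted p under 0.05. miR-26a (0.20) and miR-26b (0.38) lie close to 0 beside miR-29b at 3.59 and miR-214 at -1.64.

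The tested miRNAs whose levels most resembled the family's over the 8 arrays were ranked by Pearson's r, as a description, since the arrays fall into 2 ages and share 1 scaling. For miR-26a they were miR-652 (r = 0.96), miR-425 (r = 0.92) and miR-30b-5p (r = 0.90), with differences of 0.28, 0.28 and 0.62. For miR-26b they were let-7f (r = 0.99), miR-141 (r = 0.96) and miR-22 (r = 0.93), with differences of 0.38, 0.47 and 1.68. let-7f read 3.35, 3.43, 3.36 and 3.13 in P10 and 3.76, 3.72, 3.74 and 3.59 in adult, lowest on P10 replicate 4 and lowest within adult on replicate 4, as miR-26b was. Its difference of 0.38 equalled that of miR-26b to 2 decimals, and both turned negative with quantile normalization (-0.23 and -0.096). let-7f was picked for its correlation on these same arrays, so this likeness is part of that choice and no separate result.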

How the data were processed

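Total RNA of rat islets (4 P10 and 4 adult arrays) was labelled with cyanine 3. The deposited intensity values came from Agilent Feature Extraction (10.7.3.1 by the file headers), whose processed signal is already background-subtracted. The authors' value table holds log2 values for 311 miRNAs, made by steps not given in the sources used here.

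Outlier features were left out and the rest of a probe averaged. Each array was divided by its 75th percentile over 278 probes well above background on all arrays, raised to a common floor of -5.51 (log2), and log2 was taken. A miRNA was represented by its brightest probe and tested where 4 or more of 8 arrays had it well above background, 238 in all, with limma 3.58.1 in R 4.3.3 (Benjamini-Hochberg, threshold 0.05). Array-level values had exact permutation tests (SciPy 1.17.1). The limma step was tested on simulated data. The number of arrays limits the precision.

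The family and the lists were taken up with earlier results of these data known, and members were then found by name. Named were the members, the 3 lists, and the 3 miRNAs most correlated with each main arm. Alternatives covered scaling, background, signal column, probes, filter, floor, variance model, weights, blocks and left-out arrays. The normexp correction used median signals. The scaling called spike-in used the control probes named dmr_285 and dmr_31a. That they detect spiked RNA was assumed, since no source used here says so.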

Additional observations from a re-analysis of the deposited data

Results flagged for a closer look

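miR-26b on P10 replicate 4 lay apart from the other P10 arrays on both of its probes. The brighter probe read 0.87 there and 1.10 to 1.13 on the other 3, and the dimmer probe read 0.44 there and 0.68 to 0.72 on the others. Both probes come from the same RNA and are 1 observation. miR-425, among the miRNAs most like miR-26a, read -2.72 on adult replicate 2 and -2.61 to -2.59 on the other adult arrays. In all 50 groups of 4 arrays were looked at and 3 were marked in this way, where chance marks about 1 in 20.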

How the results depend on the processing

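Every array was 1 of 4 per age, and miR-26a and miR-26b were well above background on all of them, so the number of arrays and the scaling limit these results. With no scaling 75 miRNAs passed (17 lower), with spike-in scaling 65 (9 lower), with cyclic loess over all probes 34 (12 higher, 22 lower) and with array weights 179 (91 lower). With normexp 33 of 238 were higher. In the fit of the 164 miRNAs above background on all arrays 43 were, out of fewer tested. miR-26a was at 0.67 with the percentile over all probes, 0.32 with the median, 0.20 (now called) with a higher floor, -0.43 with quantile normalization, -0.69 and -0.37 with loess over all and on bright probes and -0.49 in the authors' table. miR-26b was then at -0.096, 0.032, -0.0019 and 0.057 in the last 4, and at 1.43 with spike-in scaling. miR-26b minus miR-26a had an unadjusted exact permutation p of 0.0286 with loess on bright probes (0.37), total gene signal (0.23), the authors' table (0.54), the mean over probes (0.27) and both pairs with the dimmer miR-26a probe (0.35 and 0.38), which adjusted over the 4 pairs of probes did not pass. The rank of miR-26a had the same unadjusted p with total gene signal and in the authors' table (5.0 each) and with the mean over probes (5.5), and the rank difference of miR-26b turned to 1.25 with loess over all probes. The insulin-content list had 0 calls with loess over all probes and at most 3 in any setting. The Ezh2 list had 1 there, with normexp, with no filter and with the replicate block. It had 5 with all probes, 4 in the authors' table and 6 with P10 replicates 3 and 4 alone. In these last settings 124, 102 and 125 of all 238 tested miRNAs passed. The Tet list had 0 with loess over all probes.

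Direction turned for single miRNAs. miR-101a was at 0.42 with all probes, 0.92 without scaling, 1.01 with spike-in scaling, 0.096 with quantile normalization, 0.077 with the median, 0.0060 in the authors' table and 0.46 with P10 replicates 3 and 4 alone. The dimmer miR-26a probe was at 0.47, 0.96, 1.05, 0.12 (median), 0.036 (normexp), 0.038 (outlier features kept) and 0.097 (P10 replicates 3 and 4 alone). With quantile normalization, loess over all probes, loess on bright probes and in the authors' table, let-7a was at -0.51, -0.41, -0.57 and -0.57, let-7b at -0.45, -0.31, -0.46 and -0.51, let-7c at -0.26, -0.28, -0.37 and -0.38, let-7f at -0.23, -0.17, -0.36 and -0.24, and miR-141 at -0.33, -0.20, -0.20 and -0.16. With array weights let-7a was at -0.046 and let-7b at -0.10, and with normexp miR-182 at -0.038 and miR-425 at -0.098. miR-101a was called in both directions. It was lower in adult with array weights (-0.43, limma adjusted p = 0.0262) and higher with P10 replicates 3 and 4 alone (0.46, limma adjusted p = 0.0144). The cause was not tested.

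Leaving out 1 array at a time gave 0.32 to 0.41 for miR-26b, -0.67 to 0.33 for its rank, 1 to 2 calls in the Ezh2 list, -0.26 to 0.13 for miR-101a, -0.012 to 0.31 for let-7b and -0.067 to 0.062 for the dimmer miR-26a probe. With the replicate block miR-26b kept its 0.38 and lost its call (limma adjusted p = 0.0561), as with slide row (0.38, limma adjusted p = 0.0787). The labels do not say that equal numbers pair the arrays, and the deviations from the age means cannot settle it. Same-numbered arrays' deviations correlated at 0.18, -0.090, 0.48 and -0.23, and 3 of 8 arrays correlated best with their own number. For arrays of the same slide row the correlations were 0.26, -0.53, 0.18 and -0.16.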
